A study of Rattus norvegicus with 61 samples.

Results

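The transcripts described here are 150 liver transcripts of the rat, of 31196 in the deposited table, that were well expressed in vehicle-treated liver, scarce in sorted immune cells and close to the middle of all liver transcripts after each of 2 liver toxicants. They were chosen by measured values. Each value was scaled to a total of 1000000 counts per sample (CPM), and the 13482 transcripts that averaged 1 CPM or more over the 15 livers were kept. For each kept transcript the log2 ratio of the treated mean to the control mean was taken after adding 1 CPM, and the median of that ratio over all kept transcripts was subtracted. Of the kept transcripts, 6647 lay within 0.5 of 0 on both centred ratios, 3308 had a mean under 5 CPM in each of the 6 sorted cell types, and 1051 met both limits. The 150 with the highest control mean among these 1051 are the members.

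Male Sprague-Dawley rats of wild-type genotype, 6 weeks old and fasted overnight, received acetaminophen (APAP, 3 g/kg), 4,4'-methylene dianiline (MDA, 300 mg/kg) or 0.5% methylcellulose as vehicle by gavage. The perfused livers were taken after 24 h, with 5 livers in each group. From untreated rats, 5 spleen samples (as cell suspensions) and 5 samples of whole blood cells, both after red cell lysis, were sequenced. Cells sorted from spleen (CD4 T, CD8 T, B and NK cells) and from blood (monocytes and neutrophils) were sequenced too, with 6 samples of each type. No group carries a transgene or a deletion, and a single high dose and a single time were studied. The totals were 10484912 to 14146402 estimated counts in the livers, 9961625 to 13587693 in spleen and whole blood and 3429971 to 13576585 in the sorted samples.

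Hepatocytes make most of the RNA of a liver, and much of it codes for plasma proteins and for enzymes of intermediary and drug metabolism. Acetaminophen is converted by cytochrome P450 enzymes of the hepatocyte to a reactive product that binds cell proteins once glutathione is used up. Methylene dianiline is an aromatic amine known for injury to the cells that line the bile ducts. RNA sequencing of a whole liver reports each transcript as a part of all RNA, so a transcript can take a larger part of the library when other transcripts become scarce. In such bulk samples, fewer cells of a type and less RNA per cell cannot be told apart.

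The deposited identifiers are Ensembl transcript numbers, and 0 of the 31196 matched the gene table used here. The members are therefore given by identifier, what they code for is not stated, and markers of hepatocytes or other liver cells could not be looked up in them.

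The members covered a wide range of abundance in control liver, from 8.17 to 3658 CPM with a median of 20.6 CPM, against a median of 5.72 CPM over all kept transcripts. They included 29 transcripts with a control mean of at least 100 CPM, 47 from 20 to 100 CPM and 74 under 20 CPM. The word abundant fits the first of these classes better than the last, since 986 kept transcripts reached 100 CPM and the last member stood at percentile 59.2 of the kept transcripts. None of the members was among the 10 most abundant transcripts of any liver. The first member held 26.1% of the members' summed control level, and the first 10 held 60.2%. At the same control level or above, 1003 kept transcripts were as scarce in the sorted cells, and the members are 15.0% of them. Of the other 853, 729 had a centred APAP ratio below -0.5 and 50 above 0.5, and 459 had a centred MDA ratio below -0.5 and 110 above 0.5. By the choice, each of these 853 lay outside at least 1 of the ratio limits. The choice set neither the direction nor the share of 15.0%. Among 4501 transcripts of the same control level that passed 5 CPM in a sorted cell type, 2267 (50.4%) lay within both ratio limits.

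The limits cut through a continuous range of values. On the centred APAP ratio the members nearest the limits stood at 0.46 and -0.496, and the nearest transcripts outside at 0.51 and -0.502. On the centred MDA ratio the values were 0.497 and -0.48 inside, against 0.52 and -0.504 outside. The highest sorted-cell mean of a member was 4.89 CPM and the nearest outside 5.17 CPM, while the last member by control level had 8.17 CPM and the next candidate 8.08 CPM.

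The samples other than liver all came from spleen or blood, and in them most members were close to silent. This largely follows from the choice, since the cells it required to be low were sorted from spleen and blood. The summed level of the members was 1.40% ± 0.104 (SD, n = 5) of all counts in control livers, 0.0109% ± 0.00101 in spleen (n = 5) and 0.0084% ± 0.000925 in whole blood cells (n = 5). The median member had 0.151 CPM in spleen and 0.0558 CPM in whole blood. In 21 members every one of the 46 samples other than liver was listed at 0, and in 33 members all 10 spleen and whole blood samples were. A second class was detected at low level in immune cells. In 50 members the highest sorted-cell mean was at least 1 CPM, while in 58 it was under 0.1 CPM. These 50 had a median of 14.0 CPM in control liver, 1.91 CPM in spleen and 1.43 CPM in whole blood, against 26.1, 0.0303 and 0.00993 CPM in the other 100. The highest sorted-cell mean of the 50 fell on NK cells in 15 members, on monocytes in 10, on B cells and on neutrophils in 7 each, on CD8 T cells in 6 and on CD4 T cells in 5.

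**Figure D1:**
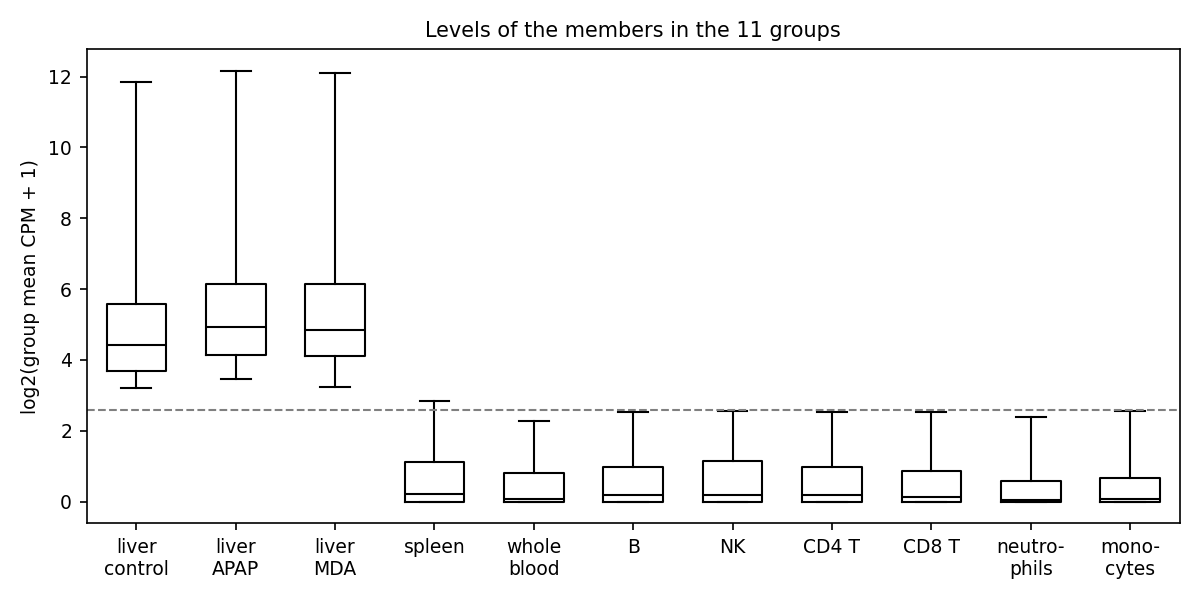
Levels of the 150 members in the 11 groups. The vertical axis is log2 of the group mean CPM plus 1, boxes span the quartiles with the median as a line, whiskers reach the lowest and highest member, and the dashed line marks 5 CPM. The members stood at 8.17 CPM or more in control liver and under 5 CPM in each sorted cell type by choice, and 1 member passed 5 CPM in spleen, at 6.13 CPM.

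The highest member, ENSRNOT00000074357, had 4930.2, 2705, 3075, 3878 and 3700.2 CPM in the control livers. It had 3721, 5924, 4545, 4844 and 3895 CPM after APAP and 4931, 4607, 3874, 4988 and 3593 CPM after MDA. The control values spread so widely that they overlapped both treated groups, with means of 3658 ± 854 CPM in control, 4586 ± 878 CPM with APAP and 4399 ± 632 CPM with MDA (SD over 5 livers). This transcript averaged 0.318 ± 0.309 CPM in spleen and 0.695 ± 0.542 CPM in whole blood.

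The second, ENSRNOT00000061294, was the steadiest of the leading members in control liver, at 1364, 1312, 1407, 1341 and 1353 CPM. After APAP it had 1609, 1628, 1609.5, 1498 and 1404 CPM, so only the lowest of these fell within the control range. After MDA it had 1426, 1279.6, 1233, 1573 and 1844 CPM, a range that held all 5 controls. The spread between livers was 34.8 CPM (SD) in control, 96.4 CPM after APAP and 248 CPM after MDA. On the TMM scale of edgeR, described further on, the direction was the opposite, and the transcript was called lower after APAP (log2 fold change -0.53, SE 0.16, adjusted p = 0.0173). After MDA it was at -0.43 (SE 0.16, edgeR adjusted p = 0.0739).

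ENSRNOT00000080132 had the highest ratio of treated to control mean among these 5 in CPM, at 1.95 for APAP and 1.504 for MDA. Its control livers had 529, 822, 707, 707 and 842 CPM, below all APAP livers at 1859, 1157, 1320.5, 1503 and 1184 CPM. The MDA livers, at 1312, 945, 951, 838 and 1378 CPM, overlapped the controls in 1 liver. It was listed at 0 in all spleen and whole blood samples.

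ENSRNOT00000092188 had 569, 431, 511, 566 and 474 CPM in control livers and 606, 614, 434, 542 and 509 CPM after MDA. After APAP 4 livers stood at 533, 478, 438 and 436 CPM and the second at 924 CPM. The groups overlapped, and that 1 liver was the only APAP liver above all controls. ENSRNOT00000024918 had 558, 356, 464, 446 and 512 CPM in control livers and 416, 490.5, 494, 442 and 459 CPM after MDA. Its APAP livers ran from 348 to 901 CPM, on both sides of the other 2 groups.

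**Figure D2:**
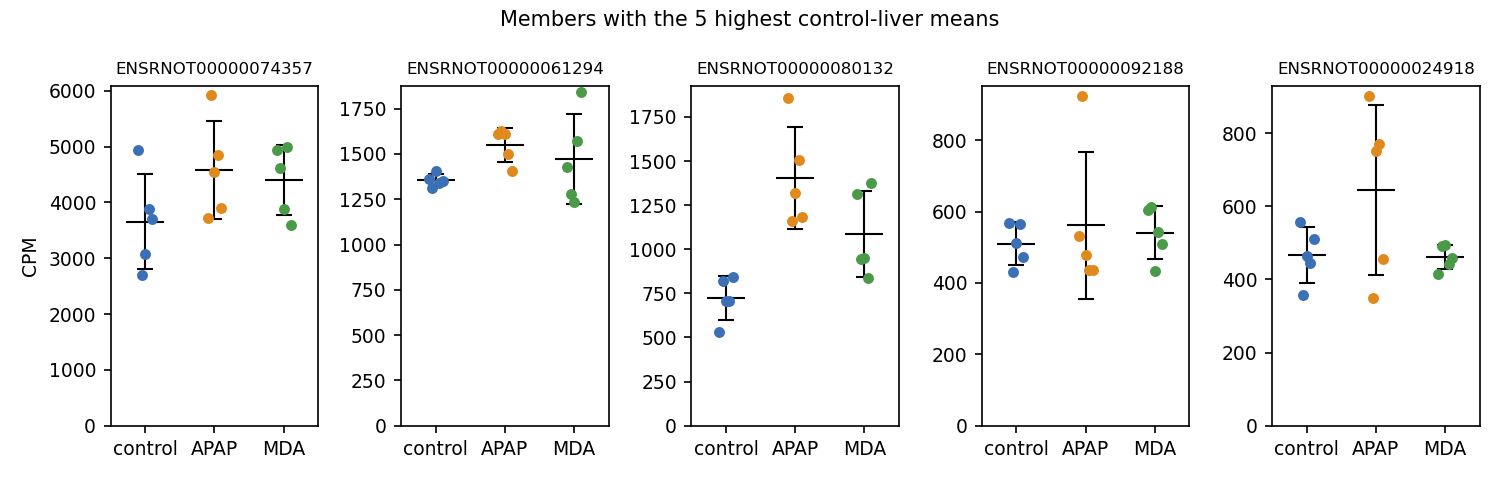
CPM of the 5 members with the highest control means in the 15 livers. Each point is 1 liver, the bar is the mean and the whiskers are the SD of 5 livers, and each panel has its own axis from 0. Only ENSRNOT00000080132 had all APAP livers above all controls.

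Whether the members can be called spared depends on the scale. In CPM the mean after APAP was above the control mean in all 150 members and the mean after MDA in 147. The ratio of means was 1.08 to 2.23 after APAP with a median of 1.38, and 0.985 to 1.97 after MDA with a median of 1.40. All 5 APAP livers stood above all 5 controls in 31 of the 150 members, where 40.6% of all kept transcripts did. All 5 MDA livers did so in 41 of the 150, where 28.8% of all kept transcripts did. The members' share of all counts was 1.40% ± 0.104 in control, 1.95% ± 0.0782 with APAP and 1.82% ± 0.0947 with MDA (SD over 5 livers). The liver shares did not overlap with the control range of 1.26% to 1.51% in either treated group. Scaled by the TMM factors described below, the share ran the other way, at 1.89% ± 0.270 in control, 1.602% ± 0.146 with APAP and 1.66% ± 0.132 with MDA. On that scale all APAP livers stood above all controls in 0 members and below them in 6, against 13.2% and 14.5% of all kept transcripts. For MDA the counts were 2 above and 6 below, against 9.21% and 9.23%.

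The whole table moved the same way in CPM. The median kept transcript was 1.53-fold higher after APAP and 1.37-fold higher after MDA, which is the shift that centring removed. Alongside it the 10 most abundant transcripts of each liver, none of them a member, took 24.9% to 29.6% of all counts in controls, 15.0% to 18.5% after APAP and 19.96% to 23.8% after MDA. After centring, the log2 ratio of the members ran from -0.496 to 0.46 with a median of -0.16 for APAP, and from -0.48 to 0.50 with a median of -0.0061 for MDA. It was below 0 in 104 members for APAP and in 76 for MDA. Within 0.25 of 0 on both were 33 members.

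The edgeR test used TMM normalization, which scales the libraries on the premise that most transcripts do not change, and it raised the control values relative to the treated. The TMM factors, which multiply the totals, were 0.601 to 0.915 in control livers, 1.11 to 1.37 after APAP and 0.983 to 1.22 after MDA. On this scale the median log2 fold change of the members was -0.22 after APAP and -0.07 after MDA, against 0.05 and 0.02 over all 13482 transcripts tested. Both APAP and MDA ratios chose the members, so their calls are a description only. After APAP 26 of the 150 (17.3%) passed an adjusted p of 0.05, where 40.8% of all transcripts did. Higher was 1 of the 150, against 20.3% of all transcripts, and lower were 25 of the 150, against 20.5%. After MDA 10 members (6.67%) passed, against 22.0% of all transcripts, with 1 of the 150 higher and 9 lower, against 10.6% and 11.3%. Without TMM normalization the direction turned: 71 members (47.3%) passed after APAP and 64 (42.7%) after MDA, all of them higher. Over all transcripts 55.7% and 44.1% were called higher. Without TMM the middle of all transcripts lay at a log2 fold change of 0.75 after APAP and 0.56 after MDA, and the middle of the members at 0.47 and 0.48.

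**Figure D3:**
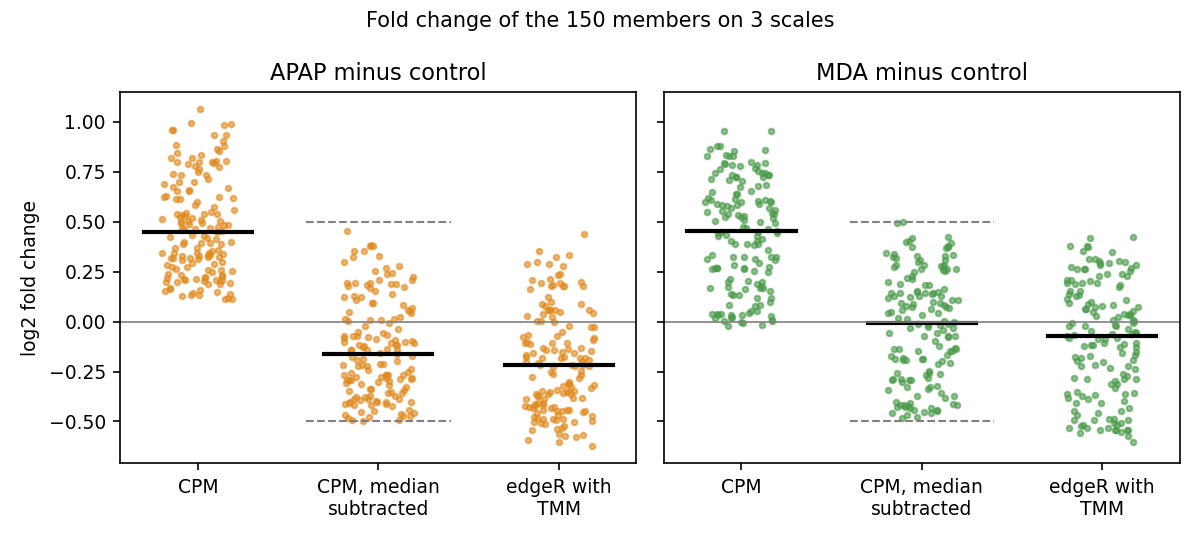
Log2 fold change of the 150 members on 3 scales, with APAP at left and MDA at right. Each point is 1 member, black bars are medians, and dashed lines mark the limits of the choice. The medians were 0.45 in CPM for both toxicants, -0.16 and -0.0061 after the median was subtracted, and -0.22 and -0.07 in edgeR with TMM.

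The number of called members rested on single livers. After APAP it fell to 13 without APAP liver 2, to 14 without APAP liver 3 and to 14 without control liver 1 or control liver 3, and it rose to 34 without APAP liver 5. With each liver left out in turn, 8.67% to 22.7% of the members and 36.8% to 40.9% of all transcripts were called. After MDA the number fell to 6 (4% of the members) without MDA liver 2 or MDA liver 3, where 18.1% and 18.3% of all transcripts were called.

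By the edgeR test the lowest of the called members after APAP were ENSRNOT00000092188, whose values are given above (log2 fold change -0.60, SE 0.22, adjusted p = 0.0422), and ENSRNOT00000048746. The latter had 95.3, 93.5, 102, 94.4 and 84.1 CPM in control livers and 107, 67.6, 77.1, 133 and 124 CPM after APAP. Its APAP livers lay on both sides of a narrow control range, and its log2 fold change was -0.59 (SE 0.22, edgeR adjusted p = 0.0412). Its MDA livers, at 114, 124, 156, 138 and 149 CPM, were all above the controls. The only member called higher, ENSRNOT00000077185, had 7.89, 10.5, 7.85, 6.11 and 8.54 CPM in control and 20.7, 15.1, 20.8, 14.7 and 19.7 CPM after APAP. These groups did not overlap, and the log2 fold change was 0.44 (SE 0.16, edgeR adjusted p = 0.0427). Over all alternatives the adjusted p of these 3 ran from 0.00298 to 0.696, from 0.0138 to 0.731 and from 1.51e-05 to 0.105, and all 3 calls were lost without any of APAP livers 1 and 3 and control livers 3 and 4. The call of the first was also lost without APAP livers 4 or 5 or control liver 1, that of the second without APAP liver 2 or control livers 1 or 2, and that of the third without APAP liver 5 or control liver 5. The first 2 had a positive log2 fold change without TMM, at 0.14 and 0.11.

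After MDA the lowest called members were ENSRNOT00000024440 and ENSRNOT00000014631. The former had 13.8, 14.7, 11.1, 12.8 and 14.8 CPM in control and 13.3, 14.0, 13.2, 13.9 and 12.0 CPM after MDA. These values overlapped throughout in CPM, while the log2 fold change was -0.57 (SE 0.15, edgeR adjusted p = 0.0121). Without TMM it was -0.02, and its adjusted p ran from 0.00255 to 0.929 over the alternatives. ENSRNOT00000014631 had 62.2, 72.9, 92.7, 80.1 and 83.1 CPM in control and 74.8, 94.3, 88.8, 68.9 and 65.6 CPM after MDA. These groups overlapped as well, with a log2 fold change of -0.56 (SE 0.18, edgeR adjusted p = 0.0341) and a log2 fold change of 0.0054 without TMM. Its adjusted p ran from 0.00806 to 0.987 over the alternatives, and the call was lost without any of 7 livers, controls 3 and 4 and all 5 MDA livers. The 1 member called higher after MDA, ENSRNOT00000039059, stood apart in CPM. Its controls had 9.70, 12.2, 11.2, 11.9 and 15.2 CPM and its MDA livers 20.4, 23.8, 25.9, 22.8 and 20.7 CPM, with a log2 fold change of 0.38 (SE 0.08, edgeR adjusted p = 0.00319). After APAP the same transcript had 19.9, 20.7, 21.5, 19.6 and 19.1 CPM, also above all controls in CPM, with a log2 fold change of 0.06 (SE 0.08, edgeR adjusted p = 0.613).

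The toxicants differed from each other in some members. The mean CPM was higher after APAP than after MDA in 76 of the 150. By edgeR 32 of the 150 members (21.3%) were called between APAP and MDA, where 33.2% of all transcripts were. Higher after APAP were 10 of the 150, against 16.2% of all transcripts, and lower were 22 of the 150, against 17.0%. Without TMM 17 of the 150 were called higher and 11 lower, against 20.3% and 11.5% of all transcripts, so the balance of directions turned with the scale. The count fell to 20 (13.3%) without APAP liver 2 and to 21 (14%) without MDA liver 5, where 29.0% and 28.9% of all transcripts were called. Since both group means were used in the choice, nothing is read from these counts.

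The spread between livers of one group was not used in the choice. The SD of log2(CPM + 1) within groups, pooled over the 3 liver groups, had a median of 0.304 over the members, against 0.319 over all 13482 kept transcripts. Among the 5504 kept transcripts with at least the control level of the last member the median was 0.258. In the median, then, the members varied more between livers than all kept transcripts of their abundance, most of which passed 5 CPM in a sorted cell type. The gap was widest in the most abundant class. The 29 members of at least 100 CPM had a median SD of 0.352 where the 986 kept transcripts of that class had 0.232, the 47 members from 20 to 100 CPM had 0.319 against 0.245, and the 74 members under 20 CPM had 0.293 against 0.277. The 853 transcripts of like level that were as scarce in the sorted cells but fell outside the ratio limits had 0.347, more than the members. A larger spread was therefore not particular to the members. By group, the members' median SD was 0.287 in control, 0.333 after APAP and 0.254 after MDA. In the same order it was 0.316, 0.301 and 0.261 over all kept transcripts. The 5504 of at least the last member's level had 0.256, 0.253 and 0.212, and the 853 outside the ratio limits had 0.299, 0.385 and 0.273. No test was made, since the members were chosen.

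The steadiest members were modest in level. ENSRNOT00000024564 had 11.3, 11.0, 11.5, 12.0 and 12.5 CPM in control livers, 15.6, 15.2, 13.2, 15.2 and 14.5 CPM after APAP and 11.2, 12.1, 13.1, 11.7 and 10.8 CPM after MDA. Its pooled SD was 0.0873 on the log2 scale. ENSRNOT00000001565, with 0.0978, had 13.4, 13.3, 14.1, 12.2 and 13.6 CPM in control, 17.7, 16.1, 15.7, 17.3 and 15.7 CPM after APAP and 13.8, 14.4, 11.8, 15.4 and 13.2 CPM after MDA. In both transcripts all APAP livers stood above all controls in CPM and the MDA livers overlapped them. On the TMM scale of edgeR both were called lower after APAP, at log2 fold changes of -0.37 (SE 0.12, adjusted p = 0.0216) and -0.41 (SE 0.15, adjusted p = 0.0366). After MDA they were called lower as well, at -0.54 (SE 0.12, adjusted p = 0.00401) and -0.52 (SE 0.15, adjusted p = 0.0196).

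The least steady members varied severalfold between rats of the same group. ENSRNOT00000075378, with a pooled SD of 1.28, had 17.1, 7.45, 0, 7.05 and 28.3 CPM in control livers. It had 11.0, 13.6, 13.9, 18.0 and 31.6 CPM after APAP and 11.1, 5.50, 30.4, 15.6 and 38.8 CPM after MDA. It was the only member listed at 0 in any liver, in control liver 3, and the other 149 had at least 1 CPM in every liver. ENSRNOT00000076464, with 0.984, had 49.8, 199, 54.7, 168 and 235 CPM in control, 55.0, 199, 234, 155 and 299 CPM after APAP and 249, 113, 360.4, 87.7 and 359.9 CPM after MDA. Each group held livers on both sides of the other groups' means. In 97 members the pooled SD was larger than the distance of the centred APAP ratio from 0, as it was in 106 for MDA. The choice held both distances within its ratio limits, so these counts largely follow from the choice. The SD describes single livers, while each ratio compares group means. The same counts were not made over all kept transcripts, and nothing is read from those of the members.

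**Figure D4:**
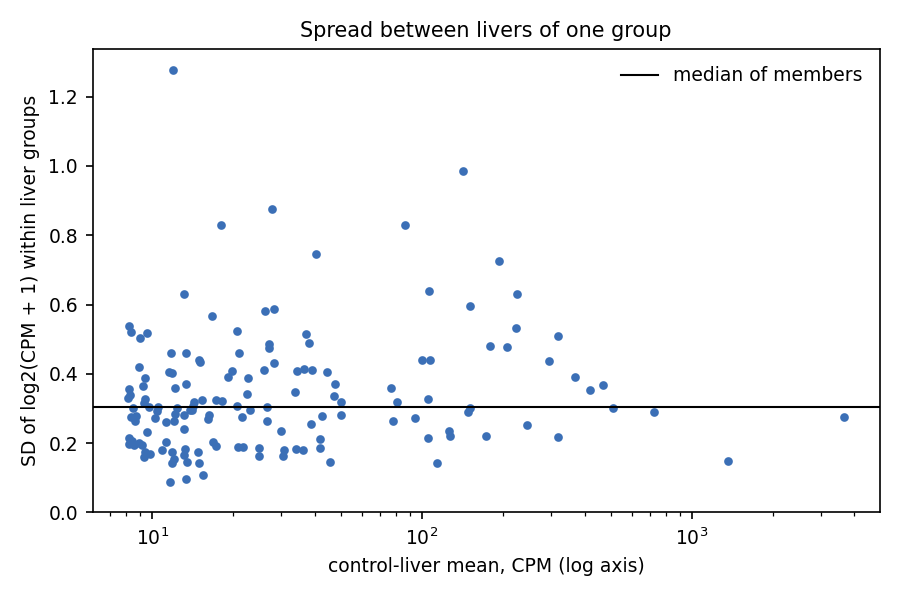
Spread between livers of one group for the 150 members. The horizontal axis is the control mean in CPM on a log axis, the vertical axis the SD of log2(CPM + 1) within liver groups, pooled over 3 groups of 5, and the line is the members' median of 0.304. The points run from 0.0873 to 1.28, and members of at least 100 CPM lie at a median of 0.352.

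Single livers shifted many members at once. Control liver 1 was the lowest of its group in 76 of the 150 and control liver 5 the highest in 50. The median deviation of the members from their group mean on the log2 scale was -0.21 and 0.15 in these livers, beside -0.24 and 0.25 over all kept transcripts. Among the APAP livers, liver 2 was the lowest in 50 members with a median deviation of -0.14, where all kept transcripts had 0.02. Liver 5 was the highest in 55 members with 0.15, where all kept transcripts had -0.03.

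Spleen and whole blood were compared with each other because the choice of members did not use that difference. The choice did hold the members under 5 CPM in cells sorted from both, while the transcripts tested as a whole had no such limit. The shares below are therefore not of like level, and nothing is read from the gap between them. A mean of at least 1 CPM over these 10 samples was reached by 36 members, and the test covers only these. Of them 9 passed the edgeR test, or 25.0%, where 46.6% of all 13885 transcripts tested did. The count higher in spleen was 6 of the 36, against 22.7% of all transcripts, and the count lower was 3 of the 36, against 23.9%. Without TMM normalization 9 of the 36 were higher and 2 lower, against 35.2% and 14.7% of all transcripts. The members' median log2 fold change was 0.16, against 0.02 over all transcripts.

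The members called lower in spleen had more RNA in the myeloid sorts. ENSRNOT00000079872 had 1.03, 1.42, 0.325, 0.349 and 0.384 CPM in spleen and 2.36, 2.34, 4.28, 1.86 and 1.30 CPM in whole blood. The ranges overlapped by 1 sample on each side, with a log2 fold change of -1.96 (SE 0.46, edgeR adjusted p = 0.00537). It averaged 3.96 CPM in neutrophils and 2.94 CPM in monocytes and at most 0.533 CPM in the lymphoid sorts. ENSRNOT00000079919 had 1.28, 1.12, 0.639, 0.952 and 0.546 CPM in spleen and 1.29, 1.61, 2.56, 1.12 and 0.809 CPM in whole blood. Those ranges overlapped, and its log2 fold change was -0.90 (SE 0.34, edgeR adjusted p = 0.0493). This call was lost without any of 7 of the 10 samples (whole blood 1, 2 and 3 and spleen 2, 3, 4 and 5), and its adjusted p ran from 0.0249 to 0.171 over the alternatives. It averaged 4.23 CPM in monocytes and 2.72 CPM in neutrophils. In all 3 members called lower, the highest sorted-cell mean was that of a myeloid type, and both myeloid types were sorted from blood.

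The members called higher in spleen had more RNA in the lymphoid sorts. ENSRNOT00000079415 had 3.36, 3.45, 3.11, 2.62 and 2.09 CPM in spleen and 1.41, 0.390, 1.32, 1.27 and 0.479 CPM in whole blood, with no overlap. Its log2 fold change was 1.39 (SE 0.37, edgeR adjusted p = 0.0101), and it averaged 2.70 CPM in NK cells and 2.39 CPM in B cells. In control livers it had 122, 189.9, 110.0, 131 and 187 CPM. ENSRNOT00000011219 had 3.37, 4.85, 3.34, 3.36 and 3.54 CPM in spleen and 1.07, 1.51, 1.21, 1.11 and 1.61 CPM in whole blood, again with no overlap. The log2 fold change was 1.32 (SE 0.19, edgeR adjusted p = 0.000233), and its 4 lymphoid means were 3.03 to 3.87 CPM where neutrophils had 0.724 CPM and monocytes 0.779 CPM. In all 6 members called higher, the highest sorted-cell mean was that of a lymphoid type, and all lymphoid types were sorted from spleen. The same share over all transcripts called between spleen and whole blood was not counted. Neither pattern is therefore read as a trait of the members. These values are a few CPM, and transcripts of at most this level in immune cells were admitted by the choice.

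**Figure D5:**
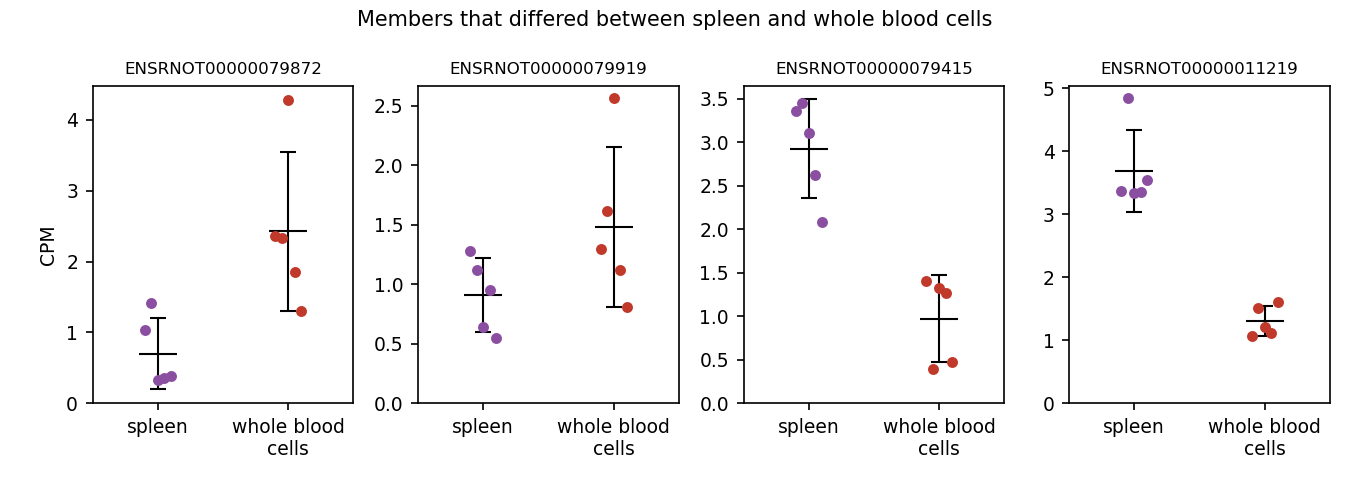
CPM of the 2 members lowest and the 2 highest in spleen against whole blood cells among those called. Each point is 1 sample, the bar is the mean and the whiskers are the SD of 5 samples, and each panel has its own axis from 0. The 2 at left, ENSRNOT00000079872 and ENSRNOT00000079919, averaged 0.701 and 0.907 CPM in spleen against 2.43 and 1.48 CPM in whole blood, and the 2 at right 2.93 and 3.69 CPM against 0.974 and 1.30 CPM.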

How the data were processed

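Paired-end RNA sequencing of 61 samples was analysed, grouped by their titles. The authors quantified trimmed reads per transcript with Salmon 1.6.0 against the Ensembl cDNA of Rnor_6.0 and imported the result in R 4.1.3. The deposited table holds estimated counts that are not whole, although the methods name TPM. In 4312 transcripts with a repeated lowest value, that value differed from transcript to transcript (0.200 to 4.05 from the 5th to the 95th percentile), and 48.4% of the values near 2 such steps lay within 0.15 of 2, against 30% if spread evenly. Of the values above 0, 0.000188% were whole numbers. Whether length was divided out, as in TPM, is not settled by this, so the order of transcripts by CPM may in part be an order by length. For the same reason the rounded values tested with edgeR may not be read counts. All columns belonged to a sample (0 left over). No identifier matched the 47357 rat genes of GRCr8, so gene lists, markers and sequences were not used. Salmon may split reads between transcripts of one gene or near-identical copies, so each level is uncertain to that degree.

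CPM was the estimated count over the column total. The rounded estimated counts were tested with edgeR 4.0.16 (quasi-likelihood test, TMM, mean of at least 1 CPM, Benjamini-Hochberg over all transcripts tested, threshold 0.05) in 1 fit of 15 livers and 1 of 10 spleen and whole blood samples. SEs were derived from the F statistics. Alternatives were no TMM, DESeq2 1.42.0, limma 3.58.1 on log2(CPM + 1) with quantile normalization, the replicate number as a block, no filter, only the groups compared and each replicate left out. limma without quantile normalization was added after seeing the data. The procedure was tested on simulated data. Named transcripts were the 5 of highest control mean, the 2 highest and 2 lowest fold changes among those called after APAP, after MDA and between spleen and whole blood, the 2 smallest and 2 largest SDs, and those nearest each limit. Members and lists were chosen with earlier results of these data known. The labels do not say whether replicates of the sorted cells, of spleen or of whole blood cells came from separate rats. The p-values measure the spread between the samples tested.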

Additional observations from a re-analysis of the deposited data

Results flagged for a closer look

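In groups of 5 or 6, 73 sets of values were searched for a sample far from the others. The measure was the gap to its nearest neighbour over the range of the group. Of the 73 sets 4 were flagged, which is close to the rate of about 1 in 20 that chance alone gives. They are listed as a description only. MDA liver 4 had 1.66% of its counts in the members, where the other 4 MDA livers had 1.82% to 1.88%. APAP liver 2 had 924 CPM of ENSRNOT00000092188, where the other APAP livers had 436 to 533 CPM. For ENSRNOT00000011219, APAP liver 3 had 21.8 CPM against 13.2 to 15.4 CPM in the others, and spleen 2 had 4.85 CPM against 3.34 to 3.54 CPM.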

How the results depend on the processing

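Scaling mattered most. Without TMM, 71 members (47.3%) were called after APAP and 64 (42.7%) after MDA, all higher, against 62.8% and 48.2% of all transcripts called. With limma without quantile normalization the calls were 74 (49.3%) and 66 (44%), against 64.8% and 49.9%. The members' median log2 fold change turned to 0.47 after APAP and 0.48 after MDA without TMM. Between APAP and MDA these settings gave 28 (18.7%) and 29 (19.3%) calls, now mostly higher after APAP, against 31.8% and 34.1%. ENSRNOT00000092188 turned to 0.14 and 0.084, ENSRNOT00000048746 to 0.11 and 0.068 and ENSRNOT00000014631 to 0.0054 and 0.0035. After APAP no filter and only the 2 groups compared gave 12 calls each (8%), where 24.5% and 37.6% of all transcripts tested were called. After MDA DESeq2 gave 19 (12.7%), limma with quantile normalization 16 (10.7%) and no filter 6 (4%), against 24.6%, 22.7% and 12.3%. Without the filter 20 members (13.3%) were called between APAP and MDA, against 18.6%, and 15 of 113 (13.3%) between spleen and whole blood, against 30.1%. Repeating the choice without centring kept 24 of the 150 and limits of 0.25 kept 33. With limits of 0.25, 372 transcripts qualified, and only these 33 members were among them. TMM factors in place of the median kept 129, group medians 107 and a pseudocount of 0.1 CPM 108. With the 10 most abundant transcripts taken out of the total, the members' share was 1.92% in control, 2.36% after APAP and 2.33% after MDA.

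With 1 replicate left out, calls ranged from 13 to 34 after APAP, 6 to 12 after MDA, 20 to 33 between them and 7 to 9 between spleen and whole blood. As shares of the members tested these were 8.67% to 22.7%, 4% to 8%, 13.3% to 22% and 18.9% to 25.7%. Of all transcripts 36.8% to 40.9%, 18.1% to 21.7%, 28.2% to 32.6% and 42.3% to 45.97% were called. The median log2 fold change was -0.28 to -0.16 for APAP and -0.12 to -0.0098 for MDA, the pooled SD from 0.294 to 0.313 and the members kept from 126 to 149. The shares ranged from 1.37% to 1.44% in control, 1.93% to 1.98% after APAP and 1.80% to 1.86% after MDA. With the replicate number as a block the calls were 21 after APAP (14%), 6 after MDA (4%), 24 between them (16%) and 7 between spleen and whole blood (19.4%). Of all transcripts 38.3%, 19.4%, 30.2% and 41.5% were called. Same-numbered samples deviated together weakly or not at all, with correlations from -0.29 to 0.17 over 20 pairs. Between APAP and MDA livers the 5 correlations ran from 0.0044 to 0.146. There 3 of the 5 APAP livers correlated best with the MDA liver of their own number. The labels do not say what a number stands for. The cause of the changes between settings was not tested. The minimum of 1 CPM limits the spleen and whole blood test to 36 of the 150 members, and without it 113 were tested.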
